A study of Mus musculus with 2 samples.

Results

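Solute carriers are the membrane proteins, named Slc with a family number, that move amino acids, sugars, metal ions, nucleosides, lipids and mitochondrial metabolites across membranes. The genes described here were those whose symbol begins with Slc and a digit and which held at least 5 counts per 1000000 (CPM) in the barcodes with at least 5000 unique molecular identifiers (UMIs, molecules counted once each), both libraries pooled. Of 32285 genes, 376 had such a symbol, 11 of them were left out by name, 222 fell below the level and 143 were members. The members were thus chosen by their level over both libraries, so that level is a description here, whereas the difference between the libraries played no part in the choice. Just inside the limit were Slc9a3r2 at 5.01, Slc10a3 at 5.09 and Slc25a40 at 5.20 CPM. Just outside it were Slc25a53 at 4.90, Slc26a9 at 4.88 and Slc19a1 at 4.87 CPM. Among the members, 5 bear a carrier's name without encoding a transporter (Slc9a3r1, Slc9a3r2, Slc4a1ap, Slc7a6os and Slc36a3os) and were kept because the rule reads the symbol.

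The study profiled single cells from the hearts of CD40 KO mice and wild-type (WT) mice 3 days after myocardial infarction, with 1 library for each genotype. Cells positive for CD45, CD11b and CD64, a surface phenotype of macrophages, came from the infarct and its border zone and were sequenced with the Chromium 3′ v3 kit. The sources used here give neither the knockout allele, nor the age and sex of the mice, nor how many were pooled into a library. CD40 is a receptor of the tumour necrosis factor receptor family through which macrophages receive signals from cells that bear CD40 ligand. With 1 library in each group there was no test between groups. Every interval below is a 95% interval for counting error only, and a difference between mice, sorts or library preparations cannot be told apart from one between genotypes.

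Macrophages take up dead cells and debris, and the amino acids, lipids, nucleosides and metals set free in their lysosomes leave through carriers in the lysosomal membrane. Carriers of the plasma membrane set the exchange of glutamate for cystine, which feeds glutathione synthesis, and the supply of arginine, choline and sugars. Carriers of the mitochondrial inner membrane, the Slc25 family, exchange ADP for ATP and move phosphate, citrate, iron and nucleotides.

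The CD40 KO library held 8146 barcodes and 90057108 UMIs and the WT library 10624 barcodes and 139343516 UMIs. Between them 23 barcodes occurred in both. After filters and removal of likely doublets, 7427 and 7570 barcodes remained in the CD40 KO and the WT library and formed 15 clusters. Cluster 0 held 4373 barcodes of the CD40 KO library and 27 of WT, 58.9% and 0.357% of each library's kept barcodes, at a median of 3218 UMIs in the CD40 KO library. It stayed unnamed, since a cluster of nearly 1 library may be that library and not a cell type. Values below are for the macrophage-like class of clusters 3 and 4, named from leading markers, and clusters 8 and 9, joined on a marker count alone. The class had 2130 barcodes and 43479661 UMIs in the CD40 KO library and 4599 barcodes and 71288988 UMIs in WT. Cluster 3 (leading genes Gpnmb, Lpl and Fabp5) made up 38.2% of the class in the CD40 KO library and 72.2% in WT. Cluster 4 (Plcb1, Vcan and Ly6c2, of which the last 2 mark monocytes) held 37.2% in the CD40 KO library and 8.74% in WT. Cluster 8 (Scin first, then histone and cell-cycle genes such as Top2a) held 16.1% in the CD40 KO library and 7.48% in WT. Cluster 9 (Ifit3 and Rsad2, interferon-induced genes) held 8.50% in the CD40 KO library and 11.6% in WT. Of the 34 monocyte and macrophage markers 32 were above 5 CPM in each library. Single markers went both ways. Spp1 had 4930 CPM in the CD40 KO library and 11955 CPM in WT. Cd14 had 808 CPM in the CD40 KO library and 512 CPM in WT. The summed level of the 34 markers was lower in the CD40 KO library, at 27259 CPM in the class of the CD40 KO library and 47641 CPM in WT. Within cluster 3 it was 34965 CPM in the CD40 KO library and 51567 CPM in WT, within cluster 4 22648 CPM in the CD40 KO library and 25251 CPM in WT, and within cluster 8 22677 CPM in the CD40 KO library and 40924 CPM in WT. The part of this difference in the ratios below was not tested. Cd40 itself had 15.3 CPM in the CD40 KO library and 16.9 CPM in WT, a log2 ratio of -0.15 (-0.29 to -0.01). Since 3′ counts outside a deleted part of the gene check nothing and the allele is unknown, the label could not be checked. It is therefore the library labelled CD40 KO throughout, called the CD40 KO library for short, and every direction below rests on that label.

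In the pool the members together made up 0.723% of all UMIs, with a median member at 23.3 CPM, a range from 5.01 to 354 CPM and 38.03% of the sum in the 10 highest. At or above 100 CPM stood 18 members, and 63 lay under 20 CPM. The members' sum in the class was 7561 CPM in the CD40 KO library and 7319 CPM in WT. A CPM from a 3′ kit counts molecules and is not divided by gene length, and capture differs between genes, so the order of levels is an order of counts.

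The member with the highest count was Slc49a4, a lysosomal membrane carrier (ENSMUSG00000022848, chr16:35694062-35769356, minus strand), at 372 CPM (366 to 377) in the CD40 KO library and 378 CPM (373 to 382) in WT. Slc8a1, the plasma membrane sodium-calcium exchanger, followed at 338 CPM (333 to 344) in the CD40 KO library and 341 CPM (336 to 345) in WT. Slc25a3, which brings phosphate into mitochondria, had 323 CPM (318 to 328) in the CD40 KO library and 327 CPM (323 to 331) in WT. The intervals of all 3 overlapped between the libraries. Slc6a6, the taurine transporter, had 251 CPM in the CD40 KO library and 307 CPM in WT, and Slc38a1, which takes up glutamine, 289 CPM in the CD40 KO library and 246 CPM in WT. Slc7a8, a light chain that exchanges large neutral amino acids, had 282 CPM in the CD40 KO library and 244 CPM in WT, and its heavy-chain partner Slc3a2 228 CPM in the CD40 KO library and 286 CPM in WT. The remaining 3 of the 10 highest were Slc16a10, which carries aromatic amino acids, at 242 CPM in the CD40 KO library and 264 CPM in WT, Slc25a5 and Slc9a9. Slc25a5, an exchanger of ADP for ATP, had 219 CPM in the CD40 KO library and 272 CPM in WT, and Slc9a9, a sodium-proton exchanger of endosomes, 243 CPM in the CD40 KO library and 246 CPM in WT. None of these 10 differed by 1.5-fold between the libraries. Their log2 ratios ran from -0.33 for Slc3a2 to 0.23 for Slc38a1, and that of Slc38a1 turned to -0.10 within cluster 3 and -0.16 within cluster 8.

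**Figure D1:**
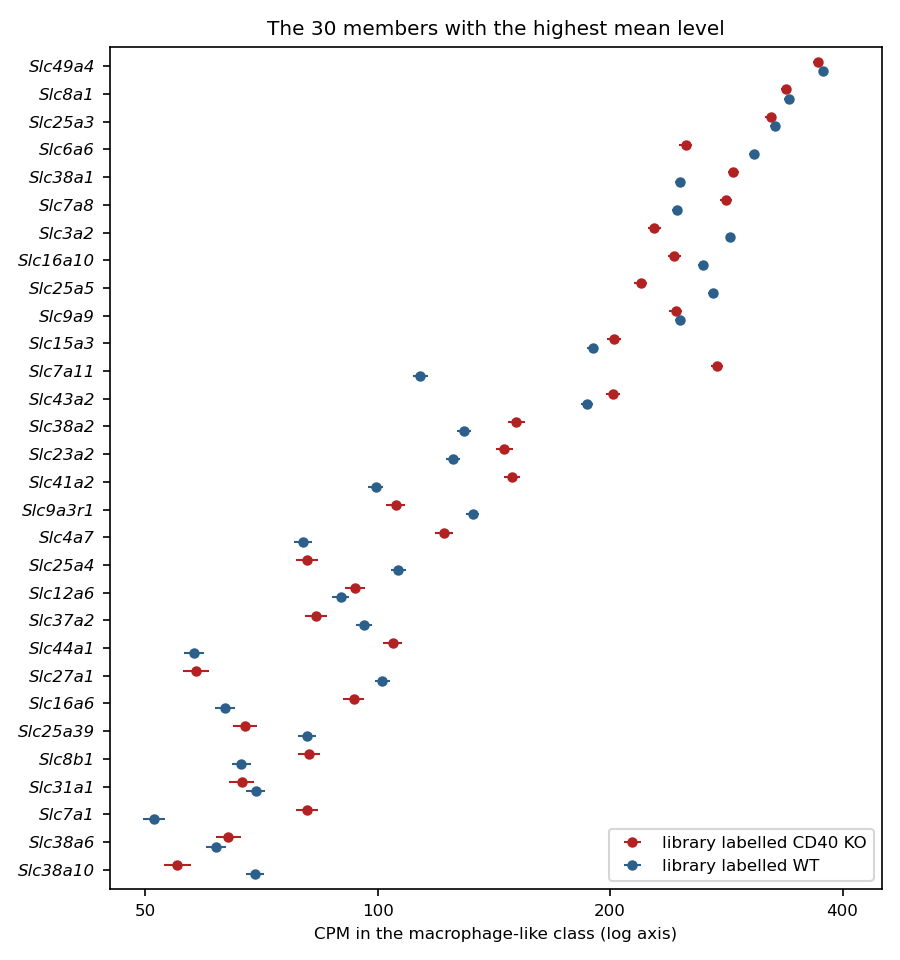
CPM of the 30 members with the highest mean level in the macrophage-like class, on a log axis, for the library labelled CD40 KO (red, upper point) and the WT library (blue, lower point), with 95% counting intervals. Slc7a11 shows the widest gap, at 275 CPM in the CD40 KO library and 114 CPM in WT, and Slc49a4 stands highest in both.

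Of the 143 members, 138 reached a mean of 5 CPM over both libraries in the class. At least 1.5-fold higher in the CD40 KO library were 9 of them (6.52%), against 10.9% of all 9069 genes at that level, and at least 1.5-fold lower were 5 (3.62%), against 3.93% of all genes. The members' shares were thus below the background for higher levels and near it for lower ones. Their median log2 ratio was 0.09, and that of all genes 0.11. Scaling by the median of ratios takes this shift of all genes to 0 and turned the split into 4 members higher and 10 lower, against 7.92% and 7.11% of all genes, with a median of -0.015. Relative to the median gene, Slc7a11 stood at 1.17, Slc44a1 at 0.75, Slc27a1 at -0.91 and Slc39a7 at -0.92 on the log2 scale. The 9 higher were Slc7a11, Slc2a6, Slc44a1, Slc15a2, Slc7a1, Slc25a28, Slc30a9, Slc4a7 and Slc41a2, and the 5 lower were Slc39a7, Slc27a1, Slc6a8, Slc50a1 and Slc25a45. Next to the 1.5-fold limit on the outside lay Slc37a3 at 0.58, and on the lower side Slc2a8 at -0.58 and Slc16a7 at -0.57. The counting interval of the ratio lay above 0 for 63 of the 138 members and below 0 for 43. Among all genes at that level these shares were 49.98% and 29.3%. Intervals that stand apart were thus common at this depth and do not by themselves set a member apart from other genes.

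**Figure D2:**
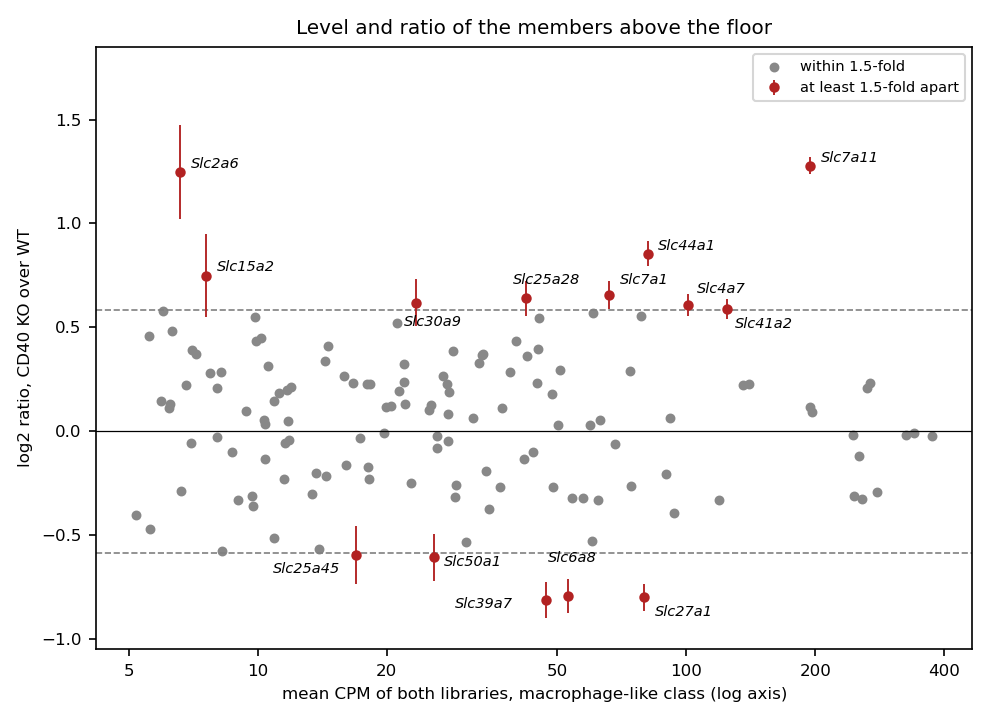
Each point is 1 of the 138 members above the floor, placed by its mean CPM over both libraries (log axis) and its log2 ratio, CD40 KO library over WT; dashed lines mark 1.5-fold, and red points past them carry 95% counting intervals. Slc7a11, at 1.28, lies far above the upper line, and Slc39a7, Slc27a1 and Slc6a8 lie between -0.81 and -0.79 below the lower one.

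Among the amino acid carriers, 20 members by family number, 19 were above the floor. Of these, 2 were higher, 1 was lower and 16 lay between, with a median of 0.11. Over all genes 10.9% were higher and 3.93% lower. Counts in role groups this small are a description only, here and below. Slc7a11, the light chain of the exchanger that imports cystine for glutamate (ENSMUSG00000027737, chr3:49892526-50443614, minus strand), had 275 CPM (270.3 to 280.1) in the CD40 KO library and 114 CPM (111 to 116) in WT. The CD40 KO library was the higher one and the intervals stood apart, at a log2 ratio of 1.28 (1.24 to 1.32). Within clusters the ratio was smaller, at 0.67 in cluster 3, 0.32 in cluster 4 and 0.60 in cluster 8, and with cluster shares made equal it was 0.40. Its level was highest in cluster 4, at 513 CPM in the CD40 KO library and 412 CPM in WT, against 151 CPM in the CD40 KO library and 95.2 CPM in WT in cluster 3. Of its UMIs in the class, cluster 4 held 7624 of 11964 in the CD40 KO library and 1703 of 8095 in WT. Cluster 4 makes up a larger share of the class in the CD40 KO library than in WT. Neutrophils carry far more of this transcript, with 4017 CPM in the neutrophil-like cluster of the CD40 KO library and 2228 CPM in that of WT. The 15 neutrophil markers summed to 212 CPM in the class of the CD40 KO library and 170.0 CPM in WT, with none at 0 in either, and 9 of them were above 5 CPM in the CD40 KO library and 7 in WT. The markers went both ways: Mmp9 had 39.8 CPM in the CD40 KO library and 8.56 CPM in WT, and Mmp8 32.1 CPM in the CD40 KO library and 55.3 CPM in WT. Within cluster 3 they summed to 132 CPM in the CD40 KO library and 142 CPM in WT, within cluster 4 to 283 CPM in the CD40 KO library and 323 CPM in WT, and within cluster 8 to 255 CPM in the CD40 KO library and 299 CPM in WT. The part of neutrophil transcripts in the Slc7a11 ratio was not tested.

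The promoter of Slc7a11 is shown because it holds a pair of matches to the amino acid response motif TGATGNAA, the letters bound by ATF4 and its C/EBP partners, and because its gene had the highest ratio among members above the 5 CPM floor. Slc7a7, the light chain that exports arginine for neutral amino acids, was the other member shown with 2 matches, picked for them after the search. Slc7a7 has further RefSeq starts, whose windows held 1 match or none, and the window with the most is shown. Slc39a7 was the member with the lowest ratio among those above the 5 CPM floor. Each window runs from 250 bases before to 50 bases after the RefSeq start, build GRCm38.p6, in the direction of transcription; capitals mark matches to TGATGNAA on either strand.
Slc7a11, chr3:50443564-50443863, minus strand: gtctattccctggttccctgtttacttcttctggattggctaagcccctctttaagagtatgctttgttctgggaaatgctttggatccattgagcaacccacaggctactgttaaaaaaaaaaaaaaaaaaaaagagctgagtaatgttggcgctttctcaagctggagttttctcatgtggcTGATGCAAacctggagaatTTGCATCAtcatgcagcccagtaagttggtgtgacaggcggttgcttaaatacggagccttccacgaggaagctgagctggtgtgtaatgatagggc
Slc7a7, chr14:54417895-54418194, minus strand: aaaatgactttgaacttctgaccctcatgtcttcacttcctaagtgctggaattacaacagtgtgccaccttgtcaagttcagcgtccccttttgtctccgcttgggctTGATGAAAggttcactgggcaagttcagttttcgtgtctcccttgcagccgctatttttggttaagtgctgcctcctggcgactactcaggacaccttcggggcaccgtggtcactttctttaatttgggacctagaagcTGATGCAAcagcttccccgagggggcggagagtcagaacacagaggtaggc
Slc39a7, chr17:34031641-34031940, minus strand: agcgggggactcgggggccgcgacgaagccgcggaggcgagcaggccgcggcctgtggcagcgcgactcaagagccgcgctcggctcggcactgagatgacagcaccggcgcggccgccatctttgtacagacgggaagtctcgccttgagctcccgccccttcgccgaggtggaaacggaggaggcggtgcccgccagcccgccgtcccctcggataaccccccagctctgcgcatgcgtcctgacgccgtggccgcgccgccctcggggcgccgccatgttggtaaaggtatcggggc
In Slc7a11 the matches lay at -66 to -59 on the plus strand and at -47 to -40 on the minus strand, with 0 the annotated start. In Slc7a7 both lay on the plus strand, at -141 to -134 and at -1 to 6. Slc39a7 held no match to any of the 4 motifs searched on both strands, TGATGNAA, the antioxidant response element TGACNNNGC, the E-box CACGTG and the NF-kB consensus. RefSeq windows were found for 110 of the 143 members, 148 windows in all, of which 4.05% held TGATGNAA, against 3.97% of all 32851 windows. TGACNNNGC was in 20.9% of the members' windows and 12.4% of all, CACGTG in 16.2% and 7.15%, and the NF-kB consensus in 10.8% and 8.46%. The members were chosen by expression, whereas all windows were taken without regard to it. Overlapping windows of 1 gene were counted separately. The gaps between these shares were therefore not read as a trait of carriers. All are matches of letters, and binding was not measured.

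The heavy chain Slc3a2, without which the Slc7a11, Slc7a8, Slc7a7, Slc7a5 and Slc7a6 light chains do not reach the cell surface, differed in direction from Slc7a11. It had 228 CPM (224 to 233) in the CD40 KO library and 286 CPM (282 to 290.1) in WT. For Slc3a2 the intervals did not overlap, and the log2 ratio was -0.33 (-0.36 to -0.29), within 1.5-fold. Its light chains differed in sign, with ratios of 0.21 for Slc7a8, -0.32 for Slc7a7, -0.03 for Slc7a5 and 0.32 for Slc7a6. Slc7a1, which takes up arginine and lysine without Slc3a2, had 80.96 CPM (78.3 to 83.7) in the CD40 KO library and 51.4 CPM (49.7 to 53.1) in WT. Slc7a1 was higher in the CD40 KO library by more than counting error, at a log2 ratio of 0.66 (0.59 to 0.72). Within clusters it was 0.48 in cluster 3, 0.19 in cluster 4 and 0.43 in cluster 8, and it kept 1.5-fold in 5 of 15 other settings. Slc6a8, the creatine transporter, had 38.8 CPM (36.99 to 40.7) in the CD40 KO library and 67.3 CPM (65.4 to 69.2) in WT. Counting intervals of Slc6a8 were clear of each other, with a log2 ratio of -0.79 (-0.87 to -0.71). Within cluster 4 its direction turned, at 0.24 (-0.13 to 0.63). Glutamine carriers lay within 1.5-fold: Slc38a2 had 151 CPM in the CD40 KO library and 129 CPM in WT, and Slc1a5 32.3 CPM in the CD40 KO library and 24.7 CPM in WT. Slc38a9, a lysosomal carrier that senses arginine, had a ratio of 0.41 (0.27 to 0.55), and Slc36a1, which lets amino acids out of lysosomes, one of -0.25 (-0.37 to -0.13).

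Of the carriers of fatty acids, choline and bile acids, 5 of 6 members were above the floor, with 1 higher, 1 lower and 3 between. The shares over all genes were 10.9% higher and 3.93% lower. Slc44a1, the choline transporter that supplies phosphatidylcholine synthesis (ENSMUSG00000028412, chr4:53440413-53622478, plus strand), had 105 CPM (102 to 108) in the CD40 KO library and 57.8 CPM (56.1 to 59.6) in WT. The CD40 KO library was the higher one and the intervals stood apart, at a log2 ratio of 0.85 (0.79 to 0.92). It was higher in the CD40 KO library within each of the 3 clusters compared, at 0.67 in cluster 3, 0.35 in cluster 4 and 0.95 in cluster 8. Slc27a1, a fatty acid transport protein with acyl-CoA synthetase activity (ENSMUSG00000031808, chr8:71568882-71587302, plus strand), had 58.2 CPM (55.9 to 60.5) in the CD40 KO library and 101 CPM (99.1 to 104) in WT. For Slc27a1 the intervals did not overlap, and the log2 ratio was -0.80 (-0.87 to -0.74). It was lower in the CD40 KO library within clusters 3 and 8, at -0.46 and -0.61, but stood at 0.14 (-0.16 to 0.45) within cluster 4, where the level was low in both libraries. The other fatty acid transport protein among the members, Slc27a4, had 7.98 CPM in the CD40 KO library and 8.14 CPM in WT, and the second choline carrier of the same family, Slc44a2, 18.1 CPM in the CD40 KO library and 15.4 CPM in WT, both within 1.5-fold.

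The metal group, 20 members by family number with 19 above the floor, had 2 higher, 1 lower and 16 between, and a median of -0.02. The shares over all genes were 10.9% higher and 3.93% lower. Slc39a7, which releases zinc from the endoplasmic reticulum (ENSMUSG00000024327, chr17:34028269-34031682, minus strand), was the lowest member of the group, with 34.2 CPM (32.5 to 36.01) in the CD40 KO library and 60.1 CPM (58.3 to 61.9) in WT. Slc39a7 was lower in the CD40 KO library by more than counting error, at a log2 ratio of -0.81 (-0.90 to -0.73). It was lower within each cluster compared, at -0.71 in cluster 3, -0.53 in cluster 4 and -0.83 in cluster 8. Slc30a9, another zinc carrier, had 28.4 CPM (26.8 to 30.01) in the CD40 KO library and 18.5 CPM (17.5 to 19.5) in WT. Counting intervals of Slc30a9 were clear of each other, with a log2 ratio of 0.62 (0.51 to 0.73). The zinc carriers of the secretory pathway Slc30a5, Slc30a6 and Slc30a7 had ratios of 0.18, -0.06 and 0.23, within 1.5-fold. The magnesium carriers parted. Slc41a2 had 149 CPM (146 to 153) in the CD40 KO library and 99.4 CPM (97.1 to 102) in WT. The CD40 KO library was the higher one and the intervals stood apart, at a log2 ratio of 0.59 (0.54 to 0.64). Slc41a3, in contrast, had 8.97 CPM in the CD40 KO library and 12.8 CPM in WT, a ratio of -0.52 (-0.69 to -0.34) that stayed within 1.5-fold. Slc41a2 was higher within each cluster, at 0.50 in cluster 3, 0.87 in cluster 4 and 0.71 in cluster 8, and Slc41a3 lower in each, at -0.42 in cluster 3, -0.37 in cluster 4 and -0.62 in cluster 8. Of the copper carriers, Slc31a1, the high-affinity importer, had 66.7 CPM in the CD40 KO library and 69.5 CPM in WT, and Slc31a2 24.98 CPM in the CD40 KO library and 36.2 CPM in WT, a ratio of -0.54 (-0.64 to -0.43). Slc31a2 was lower in the CD40 KO library within each cluster, at -0.50 in cluster 3, -0.41 in cluster 4 and -1.03 in cluster 8, and in cluster 8 it had the lowest ratio of the members called there. Slc11a2, which moves ferrous iron out of endosomes, had 60.2 CPM in the CD40 KO library and 59.03 CPM in WT.

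The 30 mitochondrial carriers of the Slc25 family were all above the floor, with 1 higher, 1 lower and 28 between. Among all genes 10.9% were higher and 3.93% lower. The median of the 30 carriers was 0.14, and their summed level 1322 CPM in the CD40 KO library and 1359 CPM in WT. Slc25a28, which brings iron into mitochondria for heme and iron-sulfur clusters, had 51.4 CPM (49.3 to 53.6) in the CD40 KO library and 33.01 CPM (31.7 to 34.4) in WT. For Slc25a28 the intervals did not overlap, and the log2 ratio was 0.64 (0.56 to 0.72). It stood at 0.57 in cluster 3, 0.06 in cluster 4 and 0.57 in cluster 8, and its paralog Slc25a37 had a ratio of 0.19 (0.07 to 0.31). Slc25a33, a pyrimidine nucleotide carrier, had 53.7 CPM in the CD40 KO library and 36.9 CPM in WT, at a ratio of 0.54 (0.46 to 0.63). Slc25a1, which exports citrate, had 24.98 CPM in the CD40 KO library and 17.4 CPM in WT, at 0.52 (0.40 to 0.64), and in the class both lay within 1.5-fold. Within clusters Slc25a33 took both signs, at 0.57 in cluster 3, -0.16 in cluster 4 and 0.64 in cluster 8, and Slc25a1 was higher in each, at 0.68 in cluster 3, 0.41 in cluster 4 and 0.59 in cluster 8. Slc25a1 was thus past 1.5-fold in clusters 3 and 8, and Slc25a33 in cluster 8. Slc25a45, a carrier of the same family, was the lower one, with 13.5 CPM (12.5 to 14.7) in the CD40 KO library and 20.4 CPM (19.4 to 21.5) in WT. Slc25a45 was lower in the CD40 KO library by more than counting error, at a log2 ratio of -0.59 (-0.74 to -0.46). The ADP-ATP exchangers had negative ratios within 1.5-fold, -0.39 (-0.45 to -0.33) for Slc25a4 and -0.31 (-0.35 to -0.28) for Slc25a5. Slc25a11, which exchanges oxoglutarate for malate, had 49.4 CPM in the CD40 KO library and 71.3 CPM in WT, a ratio of -0.53 (-0.60 to -0.46). Slc25a39, which imports glutathione, had 67.3 CPM in the CD40 KO library and 80.99 CPM in WT, and the aspartate-glutamate carriers Slc25a12 and Slc25a13 had ratios of 0.33 and 0.37.

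Among carriers of bicarbonate, chloride, sodium and calcium, 16 of 17 members were above the floor. Of these, 1 was higher, none was lower and 15 lay between, at a median of 0.12. The shares over all genes were 10.9% higher and 3.93% lower. Slc4a7, which brings sodium and bicarbonate into the cell and makes it more alkaline, had 122 CPM (119 to 125) in the CD40 KO library and 80.1 CPM (78.03 to 82.2) in WT. Counting intervals of Slc4a7 were clear of each other, with a log2 ratio of 0.61 (0.55 to 0.66). It was 0.41 in cluster 3, 0.04 in cluster 4 and 0.76 in cluster 8, so the difference was near 0 in the cluster with monocyte markers. Slc8b1, the mitochondrial sodium-calcium exchanger, had a ratio of 0.29 (0.23 to 0.35), and lay within 1.5-fold. Slc12a7, a potassium-chloride cotransporter, was the lowest of the group at -0.23 (-0.36 to -0.10) and came to 0.00 within cluster 3. Slc24a3, a sodium-calcium-potassium exchanger with 8.10 CPM in the CD40 KO library and 6.26 CPM in WT, stood at 0.74 (0.48 to 1.005) within cluster 3, past 1.5-fold, from 184 UMIs in the CD40 KO library and 357 in WT. Within cluster 4 it had 71 UMIs in the CD40 KO library and 7 in WT, below the floor.

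The 7 carriers of sugars and polyols had 1 member higher, 1 lower and 5 between, and a median of -0.21. Among all genes 10.9% were higher and 3.93% lower. Slc2a6, a glucose transporter family member found on lysosomes, had 9.29 CPM (8.41 to 10.2) in the CD40 KO library and 3.91 CPM (3.47 to 4.40) in WT. The CD40 KO library was the higher one and the intervals stood apart, at a log2 ratio of 1.25 (1.02 to 1.47). The level was low, 404 UMIs in the CD40 KO library and 279 in WT. Within clusters the ratio was 0.96 in cluster 3, 0.28 in cluster 4 and 0.52 in cluster 8, with intervals that reached 0 in clusters 4 and 8. With cluster shares made equal it was 0.48. The neutrophil-like cluster had 52.2 CPM of Slc2a6 from 10 UMIs in the CD40 KO library and 40.1 CPM from 33 UMIs in WT. The part of neutrophil transcripts in the Slc2a6 ratio was not tested. Slc2a8, an intracellular member of the same family, had 6.62 CPM in the CD40 KO library and 9.88 CPM in WT, a ratio of -0.58 (-0.78 to -0.38) just within 1.5-fold. Slc50a1, a sugar efflux carrier of the SWEET family, had 20.4 CPM (19.1 to 21.8) in the CD40 KO library and 31.1 CPM (29.8 to 32.4) in WT. For Slc50a1 the intervals did not overlap, and the log2 ratio was -0.61 (-0.72 to -0.49). Slc50a1 was lower in the CD40 KO library within each cluster, at -0.55 in cluster 3, -0.50 in cluster 4 and -0.59 in cluster 8. The sugar-phosphate carrier Slc37a2, the member of this group with the highest count, had 83.1 CPM in the CD40 KO library and 95.96 CPM in WT, within 1.5-fold.

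The peptide and anion carriers had 1 of 4 members higher, none lower and 3 between, against 10.9% higher and 3.93% lower over all genes. The higher one, Slc15a2, which takes up di- and tripeptides at the plasma membrane, had 9.52 CPM (8.63 to 10.5) in the CD40 KO library and 5.67 CPM (5.13 to 6.25) in WT. Slc15a2 was higher in the CD40 KO library by more than counting error, at a log2 ratio of 0.75 (0.55 to 0.95). Within clusters it was 0.23 in cluster 3, 0.54 in cluster 4 and 0.22 in cluster 8, with intervals that reached 0 in clusters 3 and 8. Its lysosomal relatives lay within 1.5-fold: Slc15a3 had 202 CPM in the CD40 KO library and 190.0 CPM in WT, and Slc15a4, which moves histidine and peptides and takes part in Toll-like receptor signalling, 30.2 CPM in the CD40 KO library and 39.2 CPM in WT. For Slc15a4 this made a log2 ratio of -0.38 (-0.47 to -0.28). Slc17a5, which exports sialic acid from lysosomes, had 47.8 CPM in the CD40 KO library and 37.2 CPM in WT. The nucleoside carriers had 3 of 3 members between the limits and below 0: -0.32 for Slc29a3, the lysosomal nucleoside exporter, -0.32 for Slc28a2, which takes up purine nucleosides with sodium, and -0.05 for Slc29a1, the equilibrative carrier of the plasma membrane. Slc29a3 stayed negative within each cluster, at -0.44 in cluster 3, -0.41 in cluster 4 and -0.52 in cluster 8, whereas Slc29a1 took both signs, at 0.10 in cluster 3, 0.22 in cluster 4 and -0.25 in cluster 8.

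The remaining groups had no member past 1.5-fold in the class, where 10.9% of all genes were higher and 3.93% lower. Within clusters some members were past 1.5-fold, on either side. Among them were Slc35e4 at 0.62 (0.35 to 0.90) in cluster 4 and Slc22a5 at -0.71 (-1.15 to -0.28) in cluster 8. In the class, all 19 members that carry nucleotide sugars into the Golgi or are related to such carriers lay between the limits, from -0.33 for Slc35a1, which carries CMP-sialic acid, to 0.39 for Slc35e4, with a median of 0.05. Their summed level was 434 CPM in the CD40 KO library and 427 CPM in WT. Of the 4 mono- and dicarboxylate carriers, Slc16a6 had 93.1 CPM in the CD40 KO library and 63.4 CPM in WT, a ratio of 0.55 (0.49 to 0.62). Slc16a7, which carries lactate and pyruvate, had 11.2 CPM in the CD40 KO library and 16.6 CPM in WT, a ratio of -0.57 (-0.72 to -0.42). Each kept its sign in clusters 3, 4 and 8. Slc16a1, the widely expressed lactate carrier, had 11.98 CPM in the CD40 KO library and 11.6 CPM in WT. The phosphate carriers Slc20a1 and Slc20a2 had ratios of 0.29 and 0.43. The vitamin group ranged from -0.29 for Slc52a2, a riboflavin carrier, to 0.39 for Slc19a2, a thiamine carrier, and Slc23a2, which takes up ascorbate, had the highest count there with 146 CPM in the CD40 KO library and 125 CPM in WT. The organic ion group ranged from -0.14 for Slc22a5, the carnitine transporter, to 0.55 for Slc22a21.

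Of the 5 members that encode no transporter, Slc9a3r1, a scaffold that holds sodium-proton exchangers at the membrane, had 106 CPM in the CD40 KO library and 133 CPM in WT, a ratio of -0.33 (-0.38 to -0.28). Slc4a1ap had a ratio of 0.12 (0.00 to 0.24) and Slc7a6os one of 0.23 (0.10 to 0.36). Slc36a3os had 4.48 CPM in the CD40 KO library and 5.93 CPM in WT, a ratio of -0.40 (-0.66 to -0.16). It stood at -1.06 in cluster 3, -1.42 in cluster 4 and -0.82 in cluster 8. In clusters 3 and 8 it lay below the floor and was not called. Slc9a3r2 had 9 UMIs in the class of the CD40 KO library and 53 in WT, below the floor, and is described with the endothelial-like cells. The other members below the floor in the class were Slc43a3, Slc12a2, Slc10a3 and Slc30a4. The exons of Slc10a3 overlap those of Ubl4a on the same strand in the annotation, so its counts may be shared with that gene.

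Because the clusters made up unequal shares of the class, the comparison was repeated within clusters 3, 4 and 8, the ones with at least 200 barcodes in both libraries. Within cluster 3, 6 of 136 members were at least 1.5-fold higher in the CD40 KO library and 1 was lower, against 7.71% and 2.35% of all genes. Within cluster 4 the counts were 6 and 3 of 134, against 8.23% and 4.22%, and within cluster 8 they were 11 and 9 of 139, against 11.7% and 4.62%. With cluster shares made equal, 4 members were higher and 5 lower, against 7.6% and 3.32% of all genes. Over all barcodes with at least 5000 UMIs, of any cluster, 5 of 142 members were higher and 6 lower, against 6.64% and 4.59% of all genes. Of the 14 members past 1.5-fold in the class, 12 had the same sign in all 3 clusters, and the exceptions were Slc27a1 and Slc6a8 in cluster 4. The clusters are parts of the class, so some agreement is built in, and the same count over all genes is not given here. Some of these cluster intervals reached 0, such as 0.04 (-0.09 to 0.17) for Slc4a7 in cluster 4. Of these 14, Slc7a11 and Slc44a1 exceeded 1.5-fold within cluster 3 on the higher side, and Slc39a7 on the lower side, while Slc2a6 lay below the 5 CPM floor there and was not called. The other members called higher within cluster 3 were Slc24a3, Slc25a1, Slc25a10 and Slc25a40. Within cluster 4 Slc41a2 did so on the higher side and Slc25a45 on the lower. Within cluster 8 Slc7a11, Slc44a1, Slc41a2, Slc4a7 and Slc30a9 were past the limit on the higher side, and Slc39a7, Slc27a1, Slc25a45 and Slc50a1 on the lower.

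**Figure D3:**
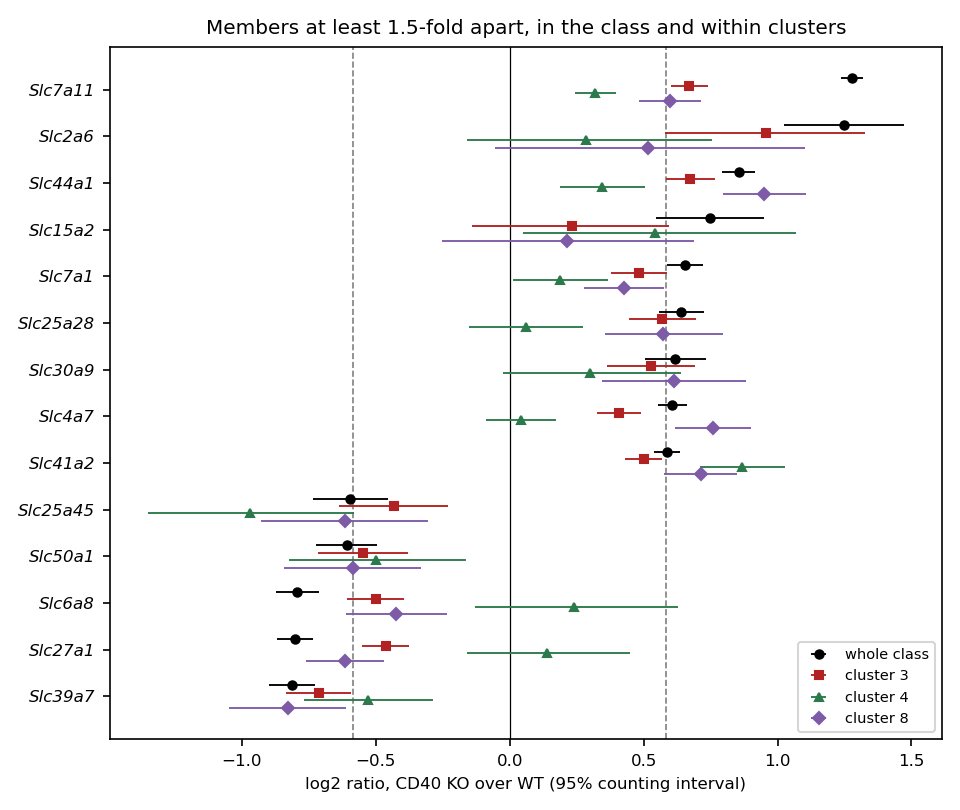
Log2 ratios, CD40 KO library over WT, with 95% counting intervals, for the 14 members at least 1.5-fold apart in the class (black) and within clusters 3, 4 and 8 (coloured); dashed lines mark 1.5-fold. Slc27a1 and Slc6a8 lie left of 0 in the class and in clusters 3 and 8 and right of 0 in cluster 4, at 0.14 and 0.24.

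The median absolute log2 ratio between the libraries was 0.264, and the median log2 range over the 4 clusters within WT 0.641. A range over several clusters is wider than a single difference by construction, so these values are not set against each other. Across the WT clusters 23 of the 138 members (16.7%) spanned at least 2-fold, against 24.7% of all genes. The cluster with the highest level was the same in both libraries for 85 members, 61.6%, against 67.9% of all genes. Slc genes were left out of the genes that formed the clusters, and these values describe the clusters without a test.

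Cluster 4, with monocyte markers, had the highest Slc7a11 of the class, at 513 CPM (502 to 525) in the CD40 KO library and 412 CPM (392 to 432) in WT, and cluster 9 the lowest, at 75.9 CPM (63.8 to 89.5) in the CD40 KO library and 68.5 CPM (61.1 to 76.5) in WT. Slc38a1 was high in clusters 4 and 9, with 394 CPM in the CD40 KO library and 404 CPM in WT in cluster 4 against 204 CPM in the CD40 KO library and 218 CPM in WT in cluster 3. Slc27a1 and Slc6a8 were low in cluster 4, at 30.4 CPM in the CD40 KO library and 27.6 CPM in WT and 21.1 CPM in the CD40 KO library and 17.9 CPM in WT, and highest in cluster 3, at 79.3 CPM in the CD40 KO library and 109 CPM in WT and 52.8 CPM in the CD40 KO library and 74.6 CPM in WT. Slc27a1 and Slc6a8 were thus high where Gpnmb, Lpl and Fabp5 led, in both libraries. Slc44a1, of the same group as Slc27a1, was highest in cluster 4 and lowest in cluster 3 in both libraries, at 96.0 and 54.5 CPM in WT.

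Cluster 8, led by Scin and with cell-cycle genes, was highest for Slc25a10, the mitochondrial dicarboxylate carrier, at 21.2 CPM (18.5 to 24.2) in the CD40 KO library and 19.3 CPM (16.5 to 22.5) in WT. It was highest too for Slc29a1, at 44.9 CPM (40.9 to 49.2) in the CD40 KO library and 53.6 CPM (48.8 to 58.6) in WT. Slc43a3, which carries purine nucleobases, reached 9.96 CPM (8.12 to 12.1) in the CD40 KO library and 13.5 CPM (11.2 to 16.2) in WT there. The ADP-ATP exchanger Slc25a4 had 122 CPM in the CD40 KO library and 156 CPM in WT in cluster 8, against 52.5 CPM in the CD40 KO library and 55.8 CPM in WT in cluster 4. These 4 members were highest in cluster 8 in both libraries. Cluster 9, led by interferon-induced genes, was highest for Slc16a10, at 546 CPM (512 to 580.4) in the CD40 KO library and 472 CPM (452 to 492) in WT. Slc8a1 reached 634 CPM (598 to 671) in the CD40 KO library and 536 CPM (515 to 558) in WT in that cluster, and Slc28a2 55.3 CPM (45.1 to 67.1) in the CD40 KO library and 71.7 CPM (64.2 to 79.9) in WT. Outside cluster 9, Slc16a10 ranged from 216 to 247 CPM in the CD40 KO library and from 220.4 to 309 CPM in WT. For this carrier cluster 9 lay above every other cluster of the class in each library.

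**Figure D4:**
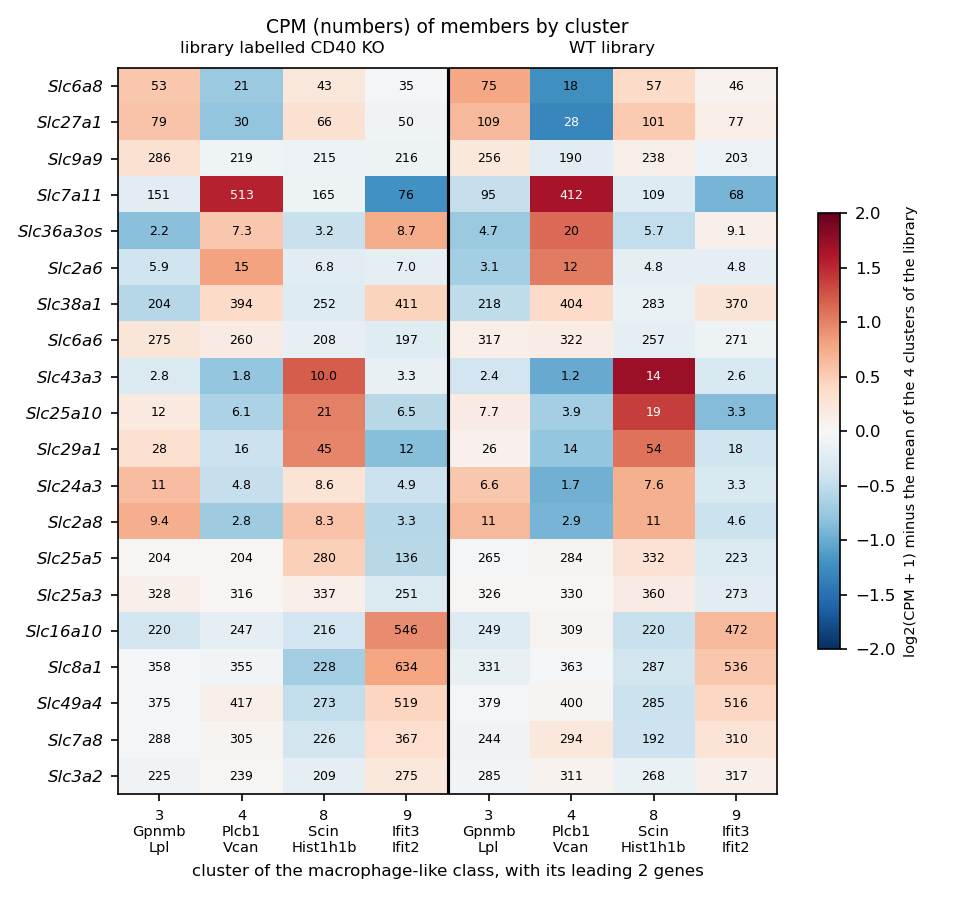
Levels of the members with the 10 highest levels and the 10 widest spans over clusters, in the 4 clusters of the class, for the library labelled CD40 KO (left block) and WT (right block). Numbers are CPM, and colour is log2(CPM + 1) minus the mean of the 4 clusters of that library; Slc7a11 is reddest in cluster 4 of both blocks, at 513 and 412 CPM, and Slc16a10 in cluster 9.

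Some members were far higher in other cells of the sort than in the class. The members named here were picked after their values were seen, as those furthest above the class. In the endothelial-like cluster of WT, with 204 barcodes, Slc9a3r2, a scaffold for membrane proteins, had 351 CPM (325 to 379), against 0.743 CPM in the class. Slc12a2, the sodium-potassium-chloride cotransporter, had 174 CPM in those cells and 2.88 CPM in the class, and Slc43a3 121 and 3.73 CPM. The CD40 KO library had 12 such barcodes, with 106 CPM of Slc9a3r2. In the neutrophil-like cluster, with 62 barcodes in the CD40 KO library and 310 in WT, the organic ion carrier family member Slc22a15 stood out beside Slc7a11, at 83.6 CPM in the CD40 KO library and 126 CPM in WT, against 8.49 CPM in the CD40 KO library and 6.99 CPM in WT in the class.

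Other members were low outside the class. In the fibroblast-like cluster of WT Slc37a2 had 3.14 CPM against 95.96 CPM in the class, and Slc7a8 11.00 CPM against 244 CPM. In the endothelial-like cluster Slc37a2 had 1.05 CPM. Cluster 5, unnamed because neutrophil transcripts led it while Csf1r, Adgre1, Fcgr1 and C1qa were all present, had 702 CPM of Slc7a11 in the CD40 KO library and 435 CPM in WT, between the class and the neutrophil-like cells. Cluster 6, unnamed and led by Cd209a and class II antigen-presentation genes, was low in Slc27a1 and Slc6a8, at 30.4 CPM in the CD40 KO library and 33.6 CPM in WT for Slc27a1 and 13.9 CPM in the CD40 KO library and 24.1 CPM in WT for Slc6a8. In cluster 0 of the CD40 KO library the members summed to 5255 CPM, against 7561 CPM in the class of that library. Slc49a4 had 103 CPM there, Slc8a1 108 CPM and Slc9a9 79.6 CPM, while Slc50a1 had 33.7 CPM and lay above its level in the class. Cluster 0 had a mitochondrial share of 4.65%, and the class of that library 2.71%. The part of depth and RNA quality in these levels was not tested.

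**Figure D5:**
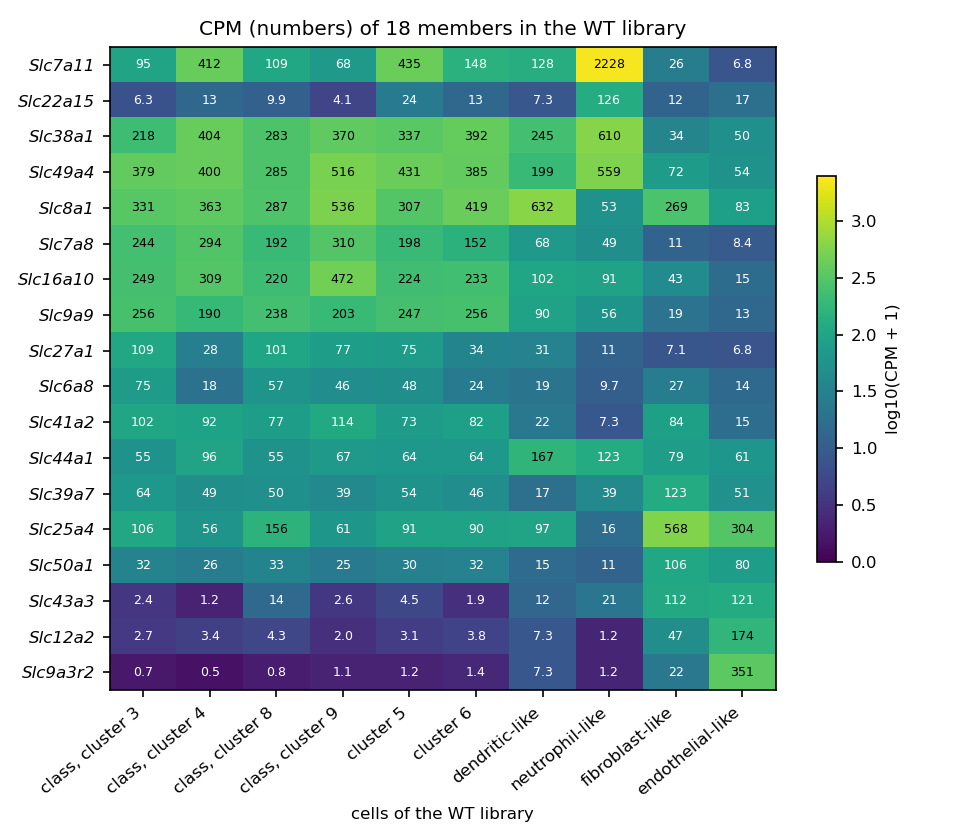
CPM (numbers; colour on a log10 scale) of 18 members, picked after their values were seen, in cells of the WT library: the 4 clusters of the class, the unnamed clusters 5 and 6, and the dendritic-like, neutrophil-like, fibroblast-like and endothelial-like clusters. Slc7a11 is highest in the neutrophil-like cells at 2228 CPM and Slc9a3r2 in the endothelial-like cells at 351 CPM.

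Gene lists of routes that the carriers belong to were read beside the members; they were drawn up with earlier results of these data known. Of 16 partners of the carriers and non-Slc carriers of the same routes, none was at least 1.5-fold higher in the CD40 KO library, 1 was lower and 15 lay between, against 10.9% and 3.93% of all genes, with a median log2 ratio of -0.35, against 0.11 for all genes. The lower one was Lamtor1, a membrane anchor protein of lysosomes, with 189 CPM in the CD40 KO library and 330.1 CPM in WT, a ratio of -0.81 (-0.84 to -0.77). It was also lower within clusters 3, 4 and 8. The highest was Emb, a partner of the lactate carrier family, at 0.38. Within clusters Emb took both signs, at 0.16 in cluster 3, -0.27 in cluster 4 and 0.16 in cluster 8. Of 16 targets of ATF4, the factor of the amino acid response that also acts on Slc7a11, 10 were above the floor, 1 was higher, none was lower and 9 lay between, with a median of 0.27. Over all genes 10.9% were higher and 3.93% lower, with a median of 0.11, so the count for this list was near the background. The higher one was Nupr1, with 81.5 CPM in the CD40 KO library and 51.7 CPM in WT, and the lowest was Atf4 itself, at -0.29. Nupr1 stood at 0.64 in cluster 3, 0.11 in cluster 4 and 0.60 in cluster 8. Of 16 targets of NRF2, the antioxidant factor that also acts on Slc7a11, 14 were above the floor, 2 were higher, none was lower and 12 lay between, with a median of 0.18, a count likewise near those 10.9% and 3.93% of all genes. The higher ones were Gsr, which reduces glutathione, with 254 CPM in the CD40 KO library and 148 CPM in WT, and Srxn1, which repairs peroxiredoxins, with 63.3 CPM in the CD40 KO library and 38.4 CPM in WT, and the lowest was Hmox1, the heme-degrading enzyme, with 1733 CPM in the CD40 KO library and 2349.9 CPM in WT. Hmox1 turned to 0.39 within cluster 4. Gsr had smaller ratios within clusters, at 0.43 in cluster 3, 0.08 in cluster 4 and 0.48 in cluster 8, each within 1.5-fold. Srxn1 stood at 0.63 in cluster 3, 0.46 in cluster 4 and 0.56 in cluster 8.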

How the data were processed

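The data are 2 matrices of raw UMI counts per gene and cell barcode, 1 for each genotype, deposited by the authors. Cell Ranger 7.0.1 made them, per the file headers, and mm10 and STAR are named by the submitters' processing notes. Intronic counting is not stated in the sources used here. The members and gene lists were chosen with earlier results of these data known.

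Filters of 1000 UMIs, 500 genes and 10% mitochondrial UMIs left 7930 barcodes in the library labelled CD40 KO and 8094 in WT. The barcodes with the highest Scrublet scores were removed as doublets at 0.8% per 1000 barcodes, 503 and 524 in the same order. After scaling to 10000 and log transformation, 2000 variable genes gave 30 principal components, 15 neighbours and Leiden clusters at resolution 0.6. The variable genes were chosen without Slc genes, Cd40, Xist, Tsix and Y-chromosome, mitochondrial, ribosomal and haemoglobin genes. Clusters were named by the marker list that led both their 10 and their 50 leading genes. Clusters 8 and 9, with no listed marker among their 10 leading genes, joined the class because more monocyte and macrophage markers were detected in them than of any other list, 29 in each. That list is the longest, with 34 genes, and 25 of them were also detected in the B-like cluster 1. The count alone therefore does not set clusters 8 and 9 apart as macrophages. Cluster 13 had 7 monocyte and macrophage markers among its 50 leading genes and stayed unnamed for its low UMI counts. The condition that left cluster 5 unnamed was set after the clusters had been seen.

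Raw counts were summed over the class and scaled to CPM. CPM have exact Poisson and ratios exact conditional (Clopper-Pearson) 95% intervals, which cover counting error only. A member was called past 1.5-fold at a mean of at least 5 CPM; no test was possible. The ratio and interval code was tested on simulated counts. Named members were the 10 with the highest and the 10 with the lowest ratio among members of at least 10 CPM; and, without that limit, the 10 highest levels, the extremes of each role group, the 10 widest spans over clusters and the members that encode no transporter; the rest are named as examples of their group, chosen after their values were seen. Of these, 1 member is not reported here. Role groups follow family numbers, so Slc49a4 counts among metals and Slc43a3 among amino acid carriers. Positions are from GENCODE vM21, possibly another annotation than the authors'. Alternatives changed scaling, cell weights, clusters, filters and floors. Tools were scanpy 1.11.5, scikit-learn 1.9.0, igraph 0.11.9, matplotlib 3.10.9, pandas 2.3.3, scipy 1.17.1, numpy 2.4.6 and Python 3.11.15.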

Additional observations from a re-analysis of the deposited data

How the results depend on the processing

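Median-of-ratios scaling gave 4 members at least 1.5-fold higher in the library labelled CD40 KO, 10 lower and a median log2 ratio of -0.015. Making cluster shares equal gave 4 higher. All barcodes with at least 5000 UMIs gave 5 higher and a median of -0.017. The lower members numbered 1 within cluster 3, 3 within cluster 4 and 9 within cluster 8. Slc27a1 and Slc6a8 turned direction within cluster 4, to 0.14 and 0.24; the cause was not tested. Under the other planned settings the counts stayed within 1.5 times their main values. Adding the unnamed clusters 5 and 6 to the class, a setting chosen after seeing the data, gave 8 higher and 6 lower, and a ratio of 0.74 for Slc7a11. Over all 15 alternatives Slc7a11 ranged from 0.32 to 1.34, Slc44a1 from 0.35 to 0.95 and Slc39a7 from -0.92 to -0.53, each with 1 direction. No paired analysis was possible because each group has 1 library. For the same reason no library could be left out, and the spread between mice is not measured.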
